A study of Drosophila melanogaster with 48 samples.

Results

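Brains of male and female Naglu knockout flies were compared by RNA-seq. The comparison took 12 of the 48 libraries of the study, all those of the genotype NAGLU KO: 6 from males (3 at week 3 and 3 at week 0) and 6 from females (3 at week 3 and 3 at week 0). The study as a whole set 4 genotypes (NAGLU KO, W422X, Y160C and WG2) side by side in both sexes and at both ages, to follow gene expression in a fly model of mucopolysaccharidosis IIIB. Each library came from 20 pooled brains of Drosophila melanogaster, with ribosomal RNA depleted. W422X, Y160C and WG2 brains of the same sexes and ages, 12 libraries each, are used below only to set the KO values beside theirs. The labels do not say which part of Naglu the knockout removes, whether it is more than 1 line, or whether WG2, for which they name no Naglu change, is its parental line. They also do not say whether replicates were separate cultures or crosses, so p-values measure the spread between these samples.

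Naglu encodes the lysosomal enzyme that takes terminal N-acetylglucosamine off heparan sulfate, and loss of its human counterpart causes mucopolysaccharidosis IIIB. In flies the number of X chromosomes sets sex through Sex-lethal (Sxl), an RNA-binding protein that is active in females only. Sxl directs female splicing of transformer, which in turn sets the sex-specific forms of doublesex and fruitless, and it blocks production of the Male-specific lethal 2 protein. In males that protein builds the MSL complex, which with the noncoding RNAs roX1 and roX2 spreads over the single X and raises its transcription. Yolk proteins, made in the fat body and ovary, are classic products of the female branch.

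Total counts of the KO libraries ran from 8690199 to 30878946. The number of genes at 1 or more counts-per-million (CPM) ran from 9817 to 14320, and it passed 12000 in 4 libraries, KO male week 3 replicates 2 and 3 and KO female week 3 replicates 1 and 3. These 4 had the highest scores on the first principal component, which held 70.0% of the variance. Y-linked genes summed to 8.52 to 41.6 CPM in males, and to 71.8 and 107 CPM in the 2 female libraries among these 4, while the other females had 3.21 to 15.2 CPM. In those 2 female libraries roX RNA and yolk protein levels, given below, were on the female side. KO male week 0 replicate 2 also stood apart, with 23794 CPM of mitochondrial genome transcripts, while week 0 females had 10879 to 13826 CPM. At week 3 males had 6607 to 8507 CPM and females 4147 to 5805 CPM. Neuronal and synaptic markers, the defining RNAs of brain, summed to 16548 to 28249 CPM in males and 16270 to 30288 CPM in females.

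Naglu itself was at a residual level in both sexes of the knockout. Naglu (FBgn0014417, 2L:8408888-8411868) had 1.42 CPM in the lowest KO male library, a median of 1.89 and a highest of 4.37 CPM, against a lowest of 1.40, a median of 1.91 and a highest of 3.76 CPM in KO females. In WG2 brains it stood at 17.8 to 27.5 CPM in males and 21.9 to 30.6 CPM in females. The sexes overlapped over the whole KO range, with a log2 fold change of males over females of -0.01 ± 0.36 (SE) and an adjusted p of 0.999.

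Of 15080 genes tested in the knockout, 64 (0.424%) differed between the sexes. Of these, 29 (0.192% of the genes tested) were higher in males and 35 (0.232%) lower in males. Tests are edgeR's quasi-likelihood test with age as a block, Benjamini-Hochberg adjusted over all genes tested. A gene is called at an adjusted p under 0.05, and every adjusted p is from edgeR's quasi-likelihood test unless another is named. Values for single ages, differences between ages, KO minus WG2, other genotypes and other settings come from separate fits. At an unadjusted p under 0.05 there were 904 genes. For 49 of the 64 the 6 male and 6 female libraries did not overlap, which was true of 96 (0.637%) of all genes tested. The count fell to 37 without KO female week 3 replicate 1, and to 21 when the 4 libraries with over 12000 detected genes were all left out. Those 4 are all of week 3, and leaving them out leaves 1 library of each sex at that age. For calls lost in that setting, having fewer libraries and the values of those 4 cannot be told apart. The 9 genes CG13008, Cht2, dl, Ppn, roX1, roX2, Yp1, Yp2 and Yp3 were called under every one of 22 other settings. Libraries were made from whole brains, so for every gene below fewer cells of a type and less RNA per cell cannot be told apart.

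The dosage compensation RNAs were over 100-fold higher in males. Of the 9 genes listed for dosage compensation, roX1 and roX2 were higher in males and the other 7 were not called. roX1 (lncRNA:roX1, X:3857230-3862697) had 3869 CPM in the lowest male library, a median of 4754 and a highest of 7408 CPM, against 14.1, 31.2 and 43.9 CPM as lowest, median and highest in females. The sexes were far apart in every library, with a log2 fold change of 7.46 ± 0.34 (adjusted p 6.15e-07). roX2 (lncRNA:roX2, X:11579065-11580432) had a lowest male level of 291 CPM, a median of 341 and a highest of 514 CPM, against 0.399, 1.27 and 2.51 CPM in females. Its log2 fold change was 8.22 ± 0.43 (adjusted p 3.53e-06), again with no overlap. Per kilobase of transcript, roX1 averaged 922 RPKM in males and 5.60 RPKM in females, and roX2 263 RPKM in males and 0.931 RPKM in females, so roX1 was the more abundant of the pair in both sexes. The span of roX1 overlaps that of ec. No source used here gives the strand setting of the counting, and reads of that pair cannot be told apart.

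Both roX RNAs were also found at a low level in every female library. At week 3 the female libraries held 40.4 to 43.9 CPM of roX1 and 1.68 to 2.51 CPM of roX2, while at week 0 they held 14.1 to 21.9 CPM of roX1 and 0.399 to 0.851 CPM of roX2. The log2 fold change of roX1 was 6.68 at week 3 and 8.25 at week 0, and that of roX2 was 7.34 at week 3 and 9.48 at week 0. The difference between the weeks was -1.57 ± 0.28 for roX1 and -2.14 ± 0.38 for roX2, and neither was called (adjusted p 0.629 for each).

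The mRNAs of the MSL proteins and their partners overlapped between the sexes. msl-2, the male-limited subunit whose translation Sxl blocks in females, had 76.0 to 102 CPM in males and 60.4 to 91.2 CPM in females, with a log2 fold change of 0.19 ± 0.10 (adjusted p 0.890). msl-1, msl-3, mof, mle, JIL-1 and Clamp had log2 fold changes between -0.14 and 0.11, and the male and female ranges overlapped for each of them. The median log2 fold change over the 9 dosage compensation genes was 0.07, beside 0.04 over all genes tested.

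**Figure D1:**
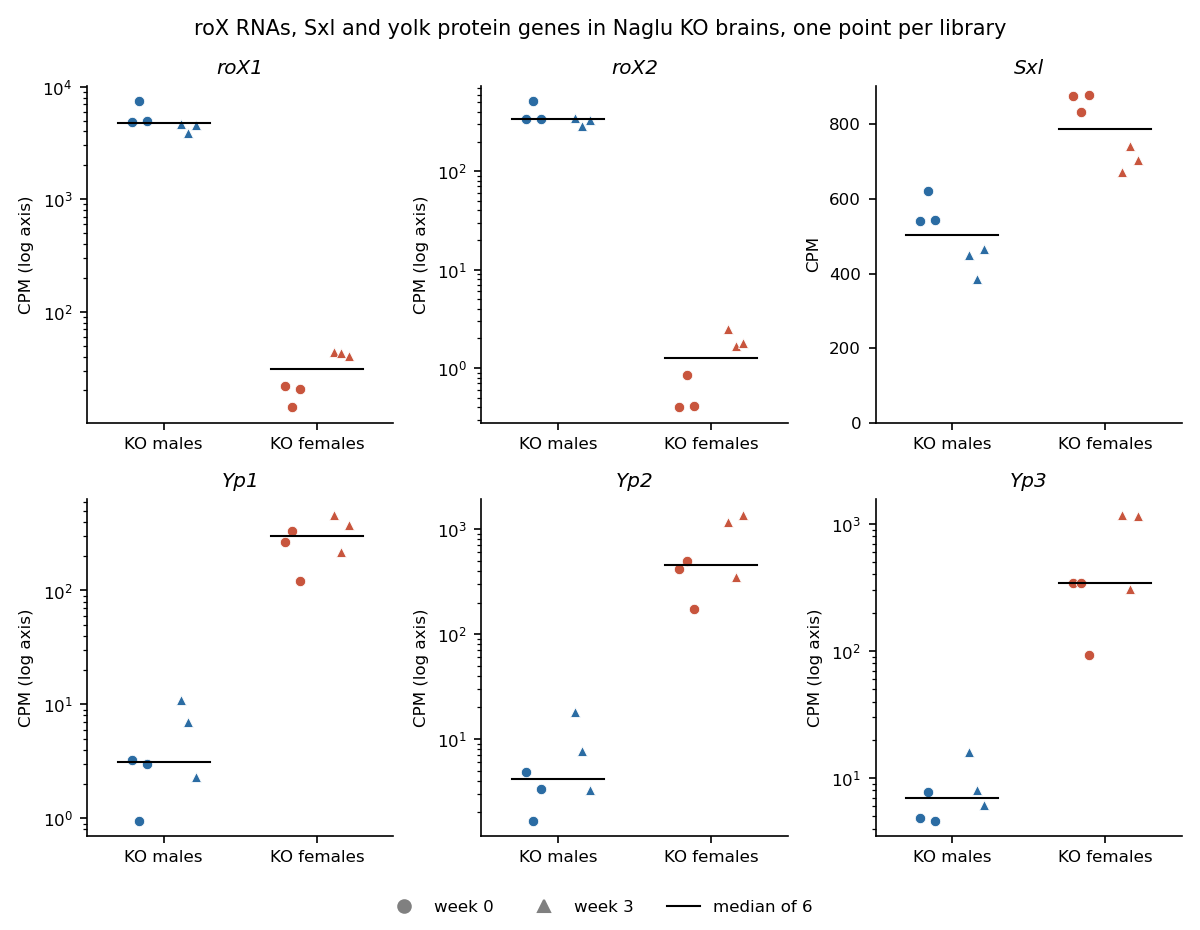
Levels of roX1, roX2, Sxl, Yp1, Yp2 and Yp3 in counts-per-million in each KO library, males left and females right, with circles for week 0, triangles for week 3 and a bar at the median of 6; the axis is logarithmic for all but Sxl. Males sit above females for both roX RNAs and below them for Sxl and the yolk protein genes, with no overlap in any panel.

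In the sex determination list, Sxl was lower in males and the other 14 genes tested were not called. Sxl (FBgn0264270, X:7074550-7098053) had 386 CPM in the lowest male library, a median of 504 and a highest of 622 CPM, against 671, 787 and 879 CPM in females. The highest male thus lay below the lowest female. The log2 fold change was -0.65 ± 0.08 (adjusted p 0.00126). It stayed between -0.70 and -0.61 over the other settings, but the call was lost without KO female week 3 replicate 1, without that library and replicate 3 (adjusted p 0.254), without the 4 libraries with many detected genes (adjusted p 0.188) and without the age block.

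Downstream of Sxl, the total RNA of the sex-specifically spliced genes was not called. fruitless (fru), whose male form organises courtship circuits, had 309 to 424 CPM in males and 390 to 672 CPM in females (log2 fold change -0.49 ± 0.11, adjusted p 0.0967). It was called in 4 of the 22 other settings. doublesex (dsx), which makes male and female transcription factors from a single gene, had 24.1 to 30.1 CPM in males and 15.9 to 26 CPM in females (0.39 ± 0.11, adjusted p 0.239). transformer (tra) had 10.6 to 18.9 CPM in males and 16.9 to 19.5 CPM in females (-0.23 ± 0.11, adjusted p 0.853). Counts per gene sum the male and female splice forms, so they do not show which form was made. The median log2 fold change of the 15 listed genes was 0.02.

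The X chromosome held most of the called genes. It carried 2298 (15.2%) of the genes tested and 41 (64.1%) of the calls, 14 higher and 27 lower in males, so 1.78% of X-linked genes tested were called. On the autosome arms 2L, 2R, 3L and 3R, 5 genes were higher and 8 lower in males among 12470 tested (0.104% called). The median log2 fold change was -0.12 over X-linked genes and 0.06 over genes of those arms, a gap of -0.18. The gap was -0.14 with the number of detected genes as a covariate and -0.09 without the 4 libraries with many detected genes. It lay between -0.13 and -0.22 when any single KO library was left out. Among genes with a mean of 10 CPM or more the 2 medians were closer, at -0.085 over 1152 X-linked genes and 0.015 over 5087 genes of those arms.

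Values per library, over genes at higher levels only, shifted in the same direction on average. Over 1151 X-linked and 5099 autosomal genes with a mean of at least 10 CPM, the median centred log2 level of X-linked genes minus that of autosomal genes averaged -0.049 ± 0.054 in KO males and 0.046 ± 0.040 in KO females (SD, n = 6 each). The difference was -0.095 (exact permutation test, two-sided p 0.0130, where 0.00217 is the smallest possible with 6 against 6). This test, and those of the other genotypes below, permuted libraries over both ages with no age block. The 3 week 3 males lay at -0.086 to -0.032 and the 3 week 3 females at 0.076 to 0.084, with a wide gap between them. At week 0 the males lay at -0.123 to 0.021 and the females at -0.010 to 0.025, and these overlapped. The lowest value was that of KO male week 0 replicate 2, the library with the high mitochondrial share. The other week 0 males, at -0.003 and 0.021, lay within the range of the week 0 females. Without that replicate the gap between the X and the autosome arms in the fit, over all genes tested, was -0.16. The per-library difference without it was not tested. In the other genotypes the difference of males minus females was -0.066 in W422X (exact permutation p 0.00433), -0.074 in Y160C (exact permutation p 0.00217) and -0.060 in WG2 (exact permutation p 0.00433).

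**Figure D2:**
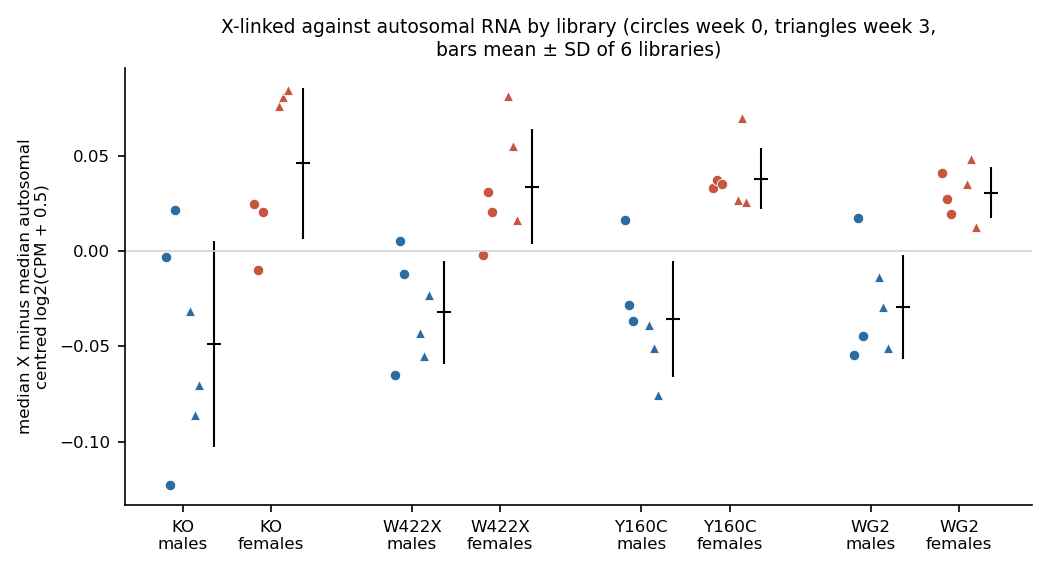
Median X-linked minus median autosomal centred log2(CPM + 0.5) in each library of the 4 genotypes, males left of females, with circles for week 0, triangles for week 3 and bars for the mean ± SD of 6 libraries. KO males average -0.049 and KO females 0.046, and the KO sexes overlap at week 0 but not at week 3.

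Yolk protein genes were the counterpart of the roX RNAs on the female side. All 3 yolk protein genes were lower in males, and fit, the remaining member of that list of 4, was not called. Yp1 (X:10053811-10055498) had 0.954 CPM in the lowest male library, a median of 3.12 and a highest of 10.9 CPM, against 120, 298 and 464 CPM in females. This gave a log2 fold change of -6.09 ± 0.50 (adjusted p 0.000341). Yp2, which lies 1174 bases from Yp1, had 1.67, 4.13 and 18.2 CPM in males, against 174, 455 and 1377 CPM in females (-6.67 ± 0.58, adjusted p 0.000518). The sexes did not overlap for either gene.

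Yp3 (X:13759546-13761547), elsewhere on the X, had 4.63 CPM in the lowest male library, a median of 6.98 and a highest of 15.9 CPM, against 93.7, 340 and 1184 CPM in females. The log2 fold change of Yp3 was -5.98 ± 0.54 (adjusted p 0.000522). Among females, KO week 3 replicates 1 and 3 held the most Yp2 and Yp3, at 1172 and 1377 CPM of Yp2. Without both of them the log2 fold changes were -6.04 for Yp1, -6.21 for Yp2 and -5.33 for Yp3, all still called. Summed fat body markers overlapped between the sexes, at 1301 to 2247 CPM in males and 1297 to 1860 CPM in females. Of the 14 tested, 0 were called by edgeR. Their log2 fold changes had a median of 0.10 but ran from -4.39 to 0.76, so the sum does not stand for every member. apolpp, the fat body lipoprotein precursor, averaged 895 ± 197 CPM in males and 841 ± 190 CPM in females (SD, n = 6 each). Ovary and eggshell markers summed to 266 to 315 CPM in males and 281 to 420 CPM in females, with 0 of 26 called by edgeR.

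fit, a female-biased satiety peptide gene of the head fat body, was low in both sexes, at 0.0345 to 0.398 CPM in males and 0.199 to 3.22 CPM in females. Its log2 fold change of -2.97 ± 0.84 had an adjusted p of 0.269, with overlapping ranges. It was called in 4 of the 22 other settings. In the other genotypes fit was lower in males, by a log2 fold change of -4.58 in W422X (adjusted p 0.00797), -3.59 in Y160C (adjusted p 0.0353) and -5.87 in WG2 (adjusted p 0.00222). The difference of KO minus WG2, 3.00 ± 1.18, was not called.

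From the Y chromosome, 23 genes were tested and 9 were higher in males (39.1%), each of them a copy of Suppressor of Stellate, abbreviated Su(Ste). For 8 of the 9 the 6 female libraries held 1 to 3 reads in all. These repeats are the source of small RNAs that silence Stellate in the testis. Su(Ste):CR42425 (Y:1033831-1035493) had 760 reads over the 6 males and 1 read over the 6 females, a ratio of 793 on scaled libraries with a counting interval of 142 to 31360. Its male levels were 0.692 CPM at the lowest, 1.74 at the median and 19 CPM at the highest. KO male week 3 replicates 2 and 3, which are the males with over 12000 detected genes, held 19 and 16.2 CPM, while the other males held 0.692 to 2.37 CPM. The call was lost without KO female week 3 replicate 2, which holds the single female read, without KO female week 3 replicates 1 and 3 together (adjusted p 0.0914) and without the 4 libraries with many detected genes (adjusted p 0.0707).

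The other Su(Ste) copies that the naming rule picks were also highest in those 2 males. Su(Ste):CR41533 had 318 male reads against 2 female reads, a ratio of 166 with a counting interval of 45.6 to 1376. Su(Ste):CR42407 had 276 male reads against 2 female reads, a ratio of 144 with an interval of 39.5 to 1195. Su(Ste):CR42430 had 335 reads in males against 2 in females, a ratio of 175 with an interval of 48 to 1449. Su(Ste):CR42415 had 645 reads in males against 4 in females, with a fitted log2 fold change of 6.90 ± 1.16 (adjusted p 0.0212). Mst77Y-16Psi, a pseudogene copy of a sperm chromatin gene on an unplaced scaffold, is outside the naming rule and was chosen after its values were seen. It had 112 reads in males against 1 in females, a ratio of 117 with an interval of 20.6 to 4656. Without the 4 libraries with many detected genes, which include those 2 males, the calls of CR41533, CR42407, CR42430 and Mst77Y-16Psi were lost, with adjusted p of 0.268, 0.411, 0.464 and 0.276. The call of CR42415 held in 12 of the 22 other settings. The copies are nearly identical and a read can match several of them, so the count of each, Mst77Y-16Psi included, is uncertain. The intervals cover counting error only.

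Genes of the long Y-linked sperm motility factors were not among them. Of the 12 genes on the Y-linked list, 8 passed the filter and 0 were called by edgeR. kl-5, a dynein heavy chain gene of the sperm tail, stood at 0.276 to 8.19 CPM in males, while KO female week 3 replicates 1 and 3 held 44 and 65.9 CPM and the other females 0.288 to 0.742 CPM. kl-3 likewise had 20.0 and 32.2 CPM in those female libraries. Markers of testis and sperm (28 tested) and of the male accessory gland (8 tested) had 0 calls by edgeR, and the accessory gland list summed to 22.4 to 166 CPM in males and 23.1 to 119 CPM in females.

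Genes of the Turandot family, which encode secreted peptides induced by heat, infection and other stress, were among the 5 autosomal genes higher in males. Of 7 Turandot genes tested, TotA and TotC were higher in males and the other 5 were not called. TotA (3R:20871036-20871700) had 1.30 CPM in the lowest male library, a median of 11.3 and a highest of 44.9 CPM, against 0.266, 0.611 and 1.32 CPM in females. The week 3 males stood at 19.7, 30.6 and 44.9 CPM and the week 3 females at 0.890 to 1.32 CPM. At week 0 the males held 1.30 to 2.88 CPM and the females 0.266 to 0.332 CPM. The sexes thus did not overlap within a week, and the week 0 males touched only the week 3 females. TotA was called at week 0 as well (2.57, adjusted p 0.0410). The log2 fold change was 4.08 ± 0.44 (adjusted p 0.000955). The difference between the weeks, 2.27 ± 0.59, was not called (adjusted p 0.718). The call of TotA held in 20 of the 22 other settings, and was lost without the age block and without KO female week 3 replicates 1 and 3 (3.71, adjusted p 0.0560).

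TotC, 1287 bases from TotA, had 0.153 CPM in the lowest male library, a median of 4.64 and a highest of 15 CPM, against 0.0664, 0.115 and 0.731 CPM in females (4.07 ± 0.68, adjusted p 0.0162). Here too the week 3 males, at 8.21 to 15 CPM, stood above all other libraries and the week 0 males overlapped the females. The call of TotC was lost when KO female week 3 replicate 1 or 3, or KO male week 3 replicate 2 or 3, was left out. TotX and TotM had log2 fold changes of 2.39 ± 0.59 (adjusted p 0.146) and 1.83 ± 0.73 (adjusted p 0.701). Antimicrobial peptides, Bomanins and Baramicins had 0 calls among 29 tested by edgeR, with a median log2 fold change of 0.54. They summed to 53.3 to 61.3 CPM in week 3 males and 53.5 to 366 CPM in week 0 males, against 35.3 to 89.1 CPM in females, so the sexes overlapped.

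TotA was also the gene, of 15394 tested, whose sex difference in KO differed from that in WG2 (1 gene, 0.00650%). In WG2 brains it stood at 0.612 to 1.93 CPM in males and 0.491 to 2.31 CPM in females. The sex difference in KO exceeded that in WG2 by 3.26 ± 0.46 on the log2 scale (adjusted p 0.00861). The call was lost without WG2 female week 3 replicate 2 (3.09, adjusted p 0.0774) and without KO female week 3 replicates 1 and 3 together (3.43, adjusted p 0.0838). An unadjusted p under 0.05 was reached by 387 genes. DESeq2 called 32 genes, all with a difference below 0 and TotA not among them. The fit to all 48 libraries called 24 genes, TotA among them and 23 below 0. The count was 104 without KO female week 3 replicate 2, with 103 below 0, and TotA was called there as well. For TotC the difference between KO and WG2 was 4.0 and was not called.

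**Figure D3:**
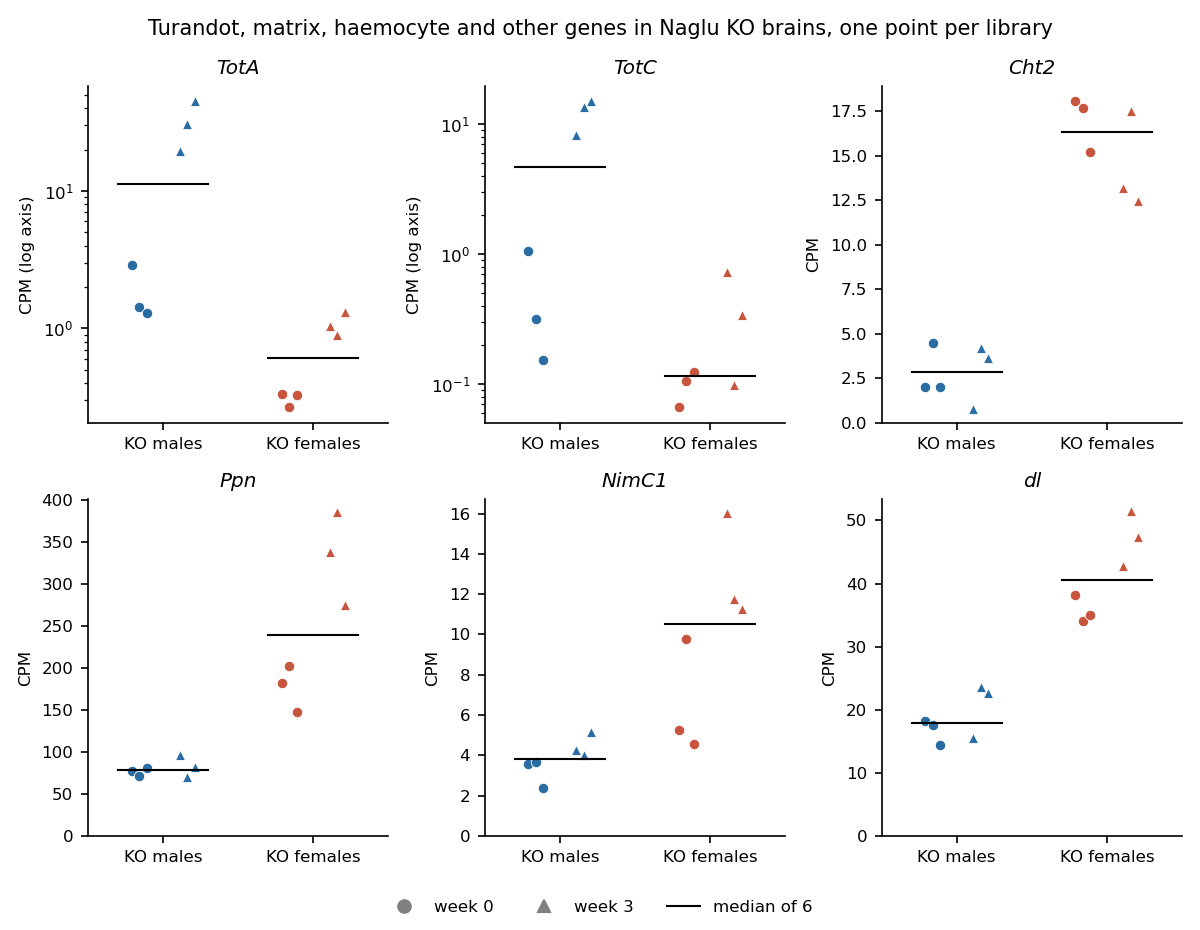
Levels of TotA, TotC, Cht2, Ppn, NimC1 and dl in counts-per-million in each KO library, males left and females right, with circles for week 0, triangles for week 3 and a bar at the median of 6; the TotA and TotC axes are logarithmic. The week 3 males hold 19.7 to 44.9 CPM of TotA, and Cht2, Ppn and dl do not overlap between the sexes.

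Of 18 haemocyte and matrix genes tested, Ppn and NimC1 were lower in males and 0 were higher. The median log2 fold change of the list was -0.76, beside 0.04 over all genes. It includes KO female week 3 replicates 1 and 3, where the list summed to 12068 and 15125 CPM, against 1580 to 2385 CPM in the other females. A list median without those 2 libraries was not computed. Ppn (papilin, 3R:28520665-28540324), a secreted glycoprotein of the extracellular matrix, had 69.8 CPM in the lowest male library, a median of 79.0 and a highest of 96.4 CPM, against 147, 239 and 385 CPM in females. All males lay below all females, with a log2 fold change of -1.61 ± 0.16 (adjusted p 0.000341). Without KO female week 3 replicates 1 and 3 it was -1.59 (adjusted p 0.00199).

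NimC1, a phagocytosis receptor of haemocytes, had 2.37 CPM in the lowest male library, a median of 3.84 and a highest of 5.15 CPM, against 4.57, 10.5 and 16 CPM in females. The ranges overlapped at their edges, and the log2 fold change was -1.30 ± 0.21 (adjusted p 0.0144). The call was lost without KO male week 3 replicate 2, without the age block and without the 4 libraries with many detected genes (adjusted p 0.198). Sr-CI, a scavenger receptor of haemocytes, averaged 5.30 ± 2.41 CPM in males and 12.1 ± 7.73 CPM in females (-1.06 ± 0.25, adjusted p 0.138). The prophenoloxidase genes PPO1 and PPO2, enzymes of melanisation, had log2 fold changes of -0.72 ± 0.19 (adjusted p 0.202) and -0.77 ± 0.29 (adjusted p 0.629).

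Other members of the haemocyte and matrix list were far higher in 2 female libraries than in any other. Hml, a clotting protein gene that marks haemocytes, stood at 43.7 to 61.9 CPM in males, but at 5858 and 7849 CPM in KO female week 3 replicates 1 and 3 and at 57.5 to 165 CPM in the other females. Its log2 fold change of -3.57 ± 1.54 was not called (adjusted p 0.811). Pvf1, a growth factor gene, averaged 2.93 ± 0.971 CPM in males and 971 ± 1550 CPM in females, and emp, a scavenger receptor gene, 10.02 ± 4.88 CPM in males and 883 ± 1358 CPM in females (SD, n = 6 each). The list summed to 762 to 2300 CPM in males and 1580 to 15125 CPM in females. Those 2 female libraries also held the high kl-3 and kl-5 levels given above, so they stood apart in more than this list. The basement membrane collagen genes Col4a1 and vkg had log2 fold changes of -0.36 ± 0.18 and -0.07 ± 0.16, and neither was called. Beyond leaving out those 2 libraries, the part of haemocyte content in the differences of Ppn and NimC1 was not tested.

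The remaining genes that the naming rule picks were lower in males, except CG14452. Cht2, a chitinase gene on 3L, had 0.793 CPM in the lowest male library, a median of 2.83 and a highest of 4.45 CPM, against 12.5, 16.4 and 18.1 CPM in females. The sexes were well apart, with a log2 fold change of -2.49 ± 0.34 (adjusted p 0.00527). CG4020 on the X had 0.552 to 2.15 CPM in males and 3.83 to 5.80 CPM in females (-1.83 ± 0.30, adjusted p 0.0144), and its call was lost without the 4 libraries with many detected genes (adjusted p 0.0600). The X-linked noncoding RNA lncRNA:CR32636 had 0.533 to 2.05 CPM in males and 3.06 to 6.27 CPM in females (-1.79 ± 0.30, adjusted p 0.0162), and its call was lost without KO female week 3 replicate 2 and without KO male week 3 replicate 3, and without the 4 libraries (adjusted p 0.102). CG14452 on 3L was higher in males, at 0.557 to 7.09 CPM, against 0 to 0.470 CPM in females (4.18 ± 0.69, adjusted p 0.0144), on 372 male and 26 female reads. Its call was lost without KO male week 3 replicate 2, which held the highest value, and without the 4 libraries (adjusted p 0.138).

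The other 45 called genes are outside the naming rule, and those named here were chosen after their values were seen. Among X-linked genes higher in males, Muc14A, a mucin gene, had 45.1 to 104 CPM in males and 7.71 to 34.4 CPM in females (2.17 ± 0.20, adjusted p 0.000341). CG12698, whose span ends 392 bases from Muc14A, had 3.64 to 9.20 CPM in males and 0.783 to 3.08 CPM in females (1.87 ± 0.21, adjusted p 0.000858). Tsf1, the iron carrier transferrin of the haemolymph, had 592 to 2021 CPM in males and 317 to 1121 CPM in females, but the sexes did not overlap within a week. At week 3 it had 1500 to 2021 CPM in males and 926 to 1121 CPM in females, and at week 0 592 to 899 CPM in males and 317 to 420 CPM in females. Its log2 fold change with age as a block was 0.86 ± 0.13 (adjusted p 0.00609), and the call was lost without KO female week 3 replicate 1. mthl1, Rrp45, mRpL16 and XRCC1, which encode a methuselah-like receptor, an exosome subunit, a mitochondrial ribosomal protein and a DNA repair scaffold, had log2 fold changes of 0.62 ± 0.09, 0.75 ± 0.13, 0.65 ± 0.12 and 0.45 ± 0.09. Of the 22 other settings, the call held in 20 for mthl1, 12 for Rrp45, 10 for mRpL16 and 6 for XRCC1.

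Among X-linked genes lower in males, Myc, a growth-regulating transcription factor, had 51.4 to 73.0 CPM in males and 68.2 to 115 CPM in females (-0.65 ± 0.08, adjusted p 0.00108), a call lost without KO female week 3 replicate 1 and without the 4 libraries with many detected genes (adjusted p 0.179). The Notch receptor gene N had 110 to 164 CPM in males and 163 to 192 CPM in females (-0.43 ± 0.08, adjusted p 0.0322), called in 7 of the 22 other settings. AdamTS-B, a secreted metalloprotease, and Ant2, a mitochondrial adenine nucleotide carrier, had log2 fold changes of -1.10 ± 0.15 and -0.99 ± 0.14, called in 20 and 21 of those settings. rst, a cell adhesion gene, Neto, an auxiliary subunit of glutamate receptors, and Scgdelta, a sarcoglycan, had -0.45 ± 0.09, -0.39 ± 0.08 and -0.59 ± 0.11, and were called in 7, 4 and 8 of those settings. Mct1, a monocarboxylate transporter, and FarO, a fatty acyl-CoA reductase, overlap each other on the X and were both lower in males, at -0.63 and -0.80, with calls in 18 and 8 of those settings. Both calls were lost without KO female week 3 replicate 1. CG13008, called under every setting, had 4.63 to 6.28 CPM in males and 10.6 to 14.3 CPM in females (-1.20 ± 0.11, adjusted p 0.000272).

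Among autosomal genes, dl was called under every setting. It encodes Dorsal, an NF-kappaB factor of embryonic patterning and Toll signalling, and it had 14.4 CPM in the lowest male library, a median of 17.9 and a highest of 23.6 CPM, against 34.1, 40.5 and 51.5 CPM in females. Its log2 fold change was -1.15 ± 0.11 (adjusted p 0.000272), with no overlap. pyd3, an enzyme of pyrimidine breakdown, had 11.5 to 21.2 CPM in males and 20.7 to 29.99 CPM in females (-0.92 ± 0.15, adjusted p 0.0140), a call lost without the 4 libraries with many detected genes (adjusted p 0.102). Gcat, the glycine C-acetyltransferase gene, had 5.33 to 16.5 CPM in males and 2.68 to 11.1 CPM in females (0.81 ± 0.14, adjusted p 0.0212), higher in males within each week and called in 13 of the 22 other settings. Of the 64 called genes, 25 have a span that overlaps another gene, among them Yp1, Myc, Cht2, Ant2, Lint-1 and asRNA:CR45479, and reads of such overlaps cannot be told apart.

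**Figure D4:**
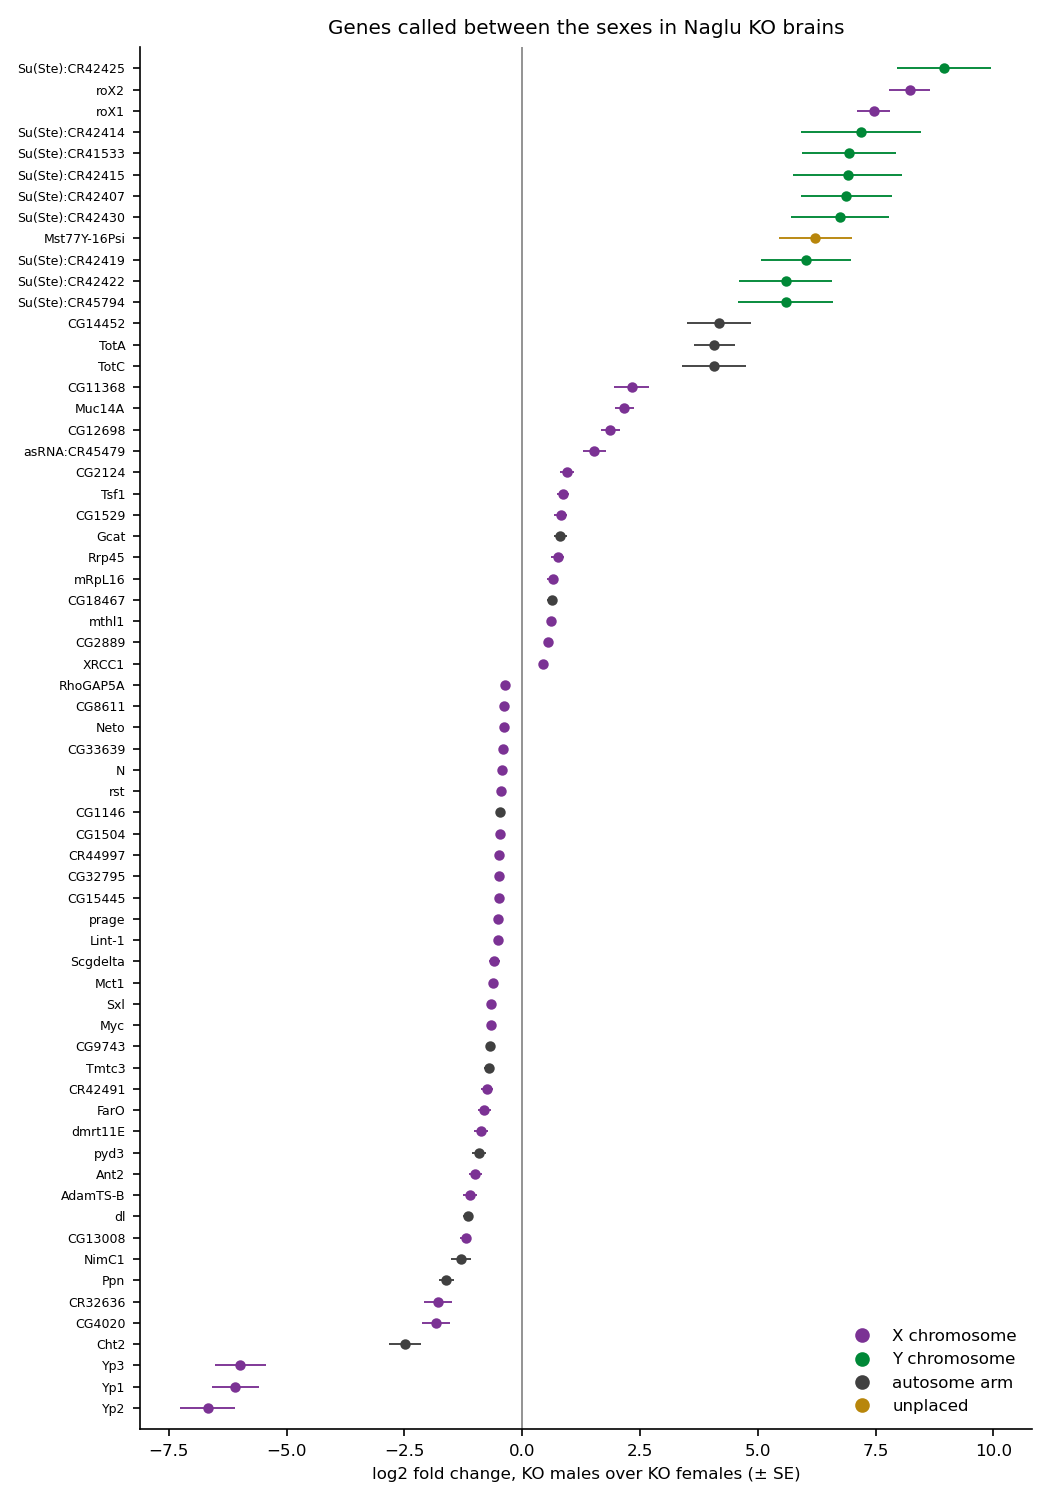
Log2 fold change of KO males over KO females, with its SE, for each of the 64 called genes, coloured by chromosome. The 41 X-linked genes run from Yp2 at -6.67 to roX2 at 8.22, and the values of Y-linked repeats with 1 to 3 female reads depend on the prior count of the fit.

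The sex difference was tested at each age and between ages. At week 3, 33 genes were called (0.219%), 10 higher (0.0663%) and 23 lower in males (0.153%). At week 0, 25 genes were called (0.166%), 18 higher (0.119%) and 7 lower in males (0.0464%), and 12 genes were called in the same direction at both ages. edgeR called 0 of 15080 genes (0%) for a sex difference that changed with age, with 672 at an unadjusted p under 0.05. DESeq2 called 75, of which 72 had a difference of week 3 minus week 0 below 0. The fit to all 48 libraries called 84, all below 0. The week 3 count was 10 without KO female week 3 replicate 1, 9 without replicate 3, 266 without replicate 2, 9 without KO male week 3 replicate 2 and 8 without replicate 3. The week 0 count was 6 and 10 without KO female week 0 replicates 1 and 3, and 7 and 14 without KO male week 0 replicates 1 and 3. The count of age-dependent differences was 180, all below 0, without KO female week 3 replicate 2, and 1 without KO female week 0 replicate 2. Leaving out KO female week 3 replicate 2 keeps only replicates 1 and 3, the libraries high in Hml and kl-5, as week 3 females. Without replicate 1, or without replicate 3, the count was 0. The part of those 2 libraries in these counts was not tested further.

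Most of the genes called in KO had the same sign in the other genotypes, whose libraries are separate from those of KO. In W422X, 138 genes were called (1.14%), 60 higher (0.494%) and 78 lower in males (0.642%), and 40 of the 64 KO genes were called in the same direction, which is 62.5% of the KO calls and 29% of the W422X calls. In Y160C, 193 genes were called (1.28%), 102 higher (0.679%) and 91 lower in males (0.605%), including 54 KO genes in the same direction, 84.4% of the KO calls and 28% of the Y160C calls. In WG2, 128 genes were called (0.984%), 55 higher (0.423%) and 73 lower in males (0.561%), including 35 KO genes in the same direction, 54.7% of the KO calls and 27.3% of the WG2 calls. The sign was the same for 61 of 61 KO genes tested in W422X, 64 of 64 in Y160C and 63 of 64 in WG2. 30 KO genes were called in all 3 other genotypes, 12 in 2, 15 in 1 and 7 in none. Leaving out 1 library at a time gave 51 to 258 calls in W422X, 114 to 313 in Y160C and 64 to 308 in WG2, and the count moved by over 1.5 times for 11, 3 and 9 of 12 libraries. The lowest counts came without W422X male week 3 replicate 1, Y160C female week 3 replicate 1 and WG2 female week 0 replicate 1, and the highest without W422X female week 3 replicate 1, Y160C male week 0 replicate 1 and WG2 female week 3 replicate 2.

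The roX RNAs, the yolk protein genes and Sxl were called in the same direction in every genotype. The log2 fold change of roX1 was 7.28 in W422X, 7.06 in Y160C and 7.15 in WG2, beside 7.46 in KO. That of Yp1 was -7.14 in W422X, -6.75 in Y160C and -7.62 in WG2, beside -6.09 in KO, and the difference of KO minus WG2, 1.54, was not called. Sxl had -0.65 in W422X, -0.74 in Y160C and -0.68 in WG2, beside -0.65 in KO. TotA had 2.32 in W422X (adjusted p 0.0311), 5.22 in Y160C (adjusted p 0.00347) and 0.43 in WG2, where it was not called.

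The 7 genes called in KO and in none of the other genotypes were Tsf1, CG11368, Rrp45, CG8611, Gcat, CG1146 and Neto, each with the same sign in all 4 genotypes. Gcat had 0.81 in KO, against 0.40 in W422X, 0.09 in Y160C and 0.24 in WG2. Tsf1 had 0.86 in KO, against 0.61 in W422X, 0.54 in Y160C and 0.49 in WG2. The difference of KO minus WG2 was 0.55 for Gcat and 0.33 for Tsf1, and neither was called, so no difference from WG2 was shown for them.

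**Figure D5:**
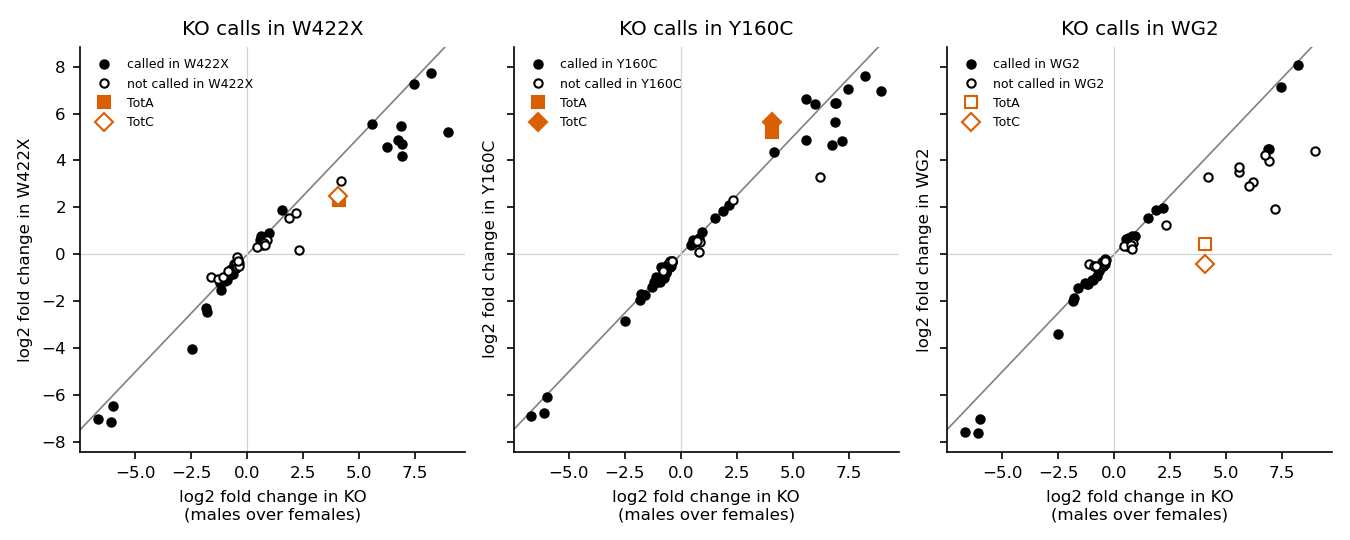
Log2 fold change of males over females in KO (horizontal axis) against that in W422X, Y160C and WG2 (vertical axes) for the genes called in KO, filled where also called in that genotype, with a line where both are equal. TotA, marked by a square, has 5.22 in Y160C and 0.43 in WG2, and TotC, marked by a diamond, 5.65 in Y160C and -0.39 in WG2.

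For 28 of the 33 gene lists, none of the tested members was called by edgeR. Heparan sulfate degradation, the pathway of Naglu, had 0 of 9 called and a median log2 fold change of 0.01. Its members included Sgsh and Ids at -0.07 ± 0.19 and 0.01 ± 0.15, both enzymes whose human counterparts are deficient in related storage diseases. Other lysosomal genes had 0 of 30 called, with the smallest adjusted p for LManII, an alpha-mannosidase gene, at 120 ± 24.5 CPM in males and 78.5 ± 9.54 CPM in females (0.61 ± 0.12, adjusted p 0.0535). Among 38 neuropeptide genes, Proc was at 76.2 ± 33 CPM in males and 104.5 ± 33.2 CPM in females (-0.50 ± 0.10, adjusted p 0.0615), and Ilp3, an insulin-like peptide gene, at 7.72 ± 7.27 CPM in males and 21.5 ± 5.75 CPM in females (-1.85 ± 0.47, adjusted p 0.221).

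Among odorant-binding protein genes, Obp19d and Obp56d had log2 fold changes of 1.99 ± 0.39 and 2.34 ± 0.47, with adjusted p of 0.0573 and 0.0581, and 0 of 41 were called. Neurons and synapses (18 tested), glia (16), photoreceptor (29) and muscle genes (19) had medians of 0.00, -0.02, 0.34 and 0.68. Muscle genes summed to 181 to 334 CPM in week 3 males and 157 to 741 CPM in week 0 males, against 112 to 317 CPM in females. The 5 sex-biased head fat body genes tested had a median of 1.36. Cytosolic ribosomal protein genes (84 tested) had a median of 0.18 and nuclear respiratory chain genes (62 tested) a median of 0.28. At week 0 the males held 25099 to 35898 CPM of ribosomal protein RNA and the females 21999 to 24658 CPM, with no overlap. At week 3 the males held 22741 to 28237 CPM and the females 20919 to 26757 CPM, and these overlapped.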

How the data were processed

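Gene-level read counts of 48 libraries were used as the authors deposited them, in whole numbers with no normalization, in 1 table of 17490 genes with a gene length column. The submitters' processing notes name Subread, with no version. The aligner, the genome build and the strand setting are not given in the sources used here. Symbols and positions came from the BDGP6.54 annotation by gene ID for 17288 genes, and the rest kept their ID. All 48 columns were matched to samples by the library name in the labels' description.

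Counts of the 12 KO libraries were filtered with edgeR 4.0.16 (filterByExpr, minimum count 10, minimum total 15), which left 15080 genes and removed 2410, and scaled by TMM. Sex was tested with the quasi-likelihood test with age as a block (9 residual degrees of freedom), and p-values were adjusted by Benjamini-Hochberg over all genes tested. A standard error is the absolute log2 fold change over the root of its F statistic. KO minus WG2 was fitted to 24 libraries, and each other genotype to its own 12. Ages were tested with 1 mean per group. CPM values use the TMM-scaled library sizes and RPKM values add the deposited gene length. The number of genes at 1 CPM and the X chromosome values per library use total counts with no TMM scaling. Genes were named by a rule: Naglu, the tested members of the dosage compensation, sex determination and yolk protein lists, up to 8 called genes at either end with a mean of 1 CPM or more and the same sign at both weeks, and up to 2 called members of each other list. The members, the 33 gene lists (1061 entries resolved, 8 not) and the tests were chosen with earlier results of these data known. The X chromosome difference per library used centred log2(CPM + 0.5), tested by exact permutation in scipy 1.17.1. DESeq2 1.42.0, limma 3.58.1 (voom with sample quality weights), other scaling, filters, blocks and left-out libraries were tried as alternatives. The quasi-likelihood script was tested on simulated counts with known fold changes. These had a fixed dispersion, no age effect and no outlying libraries, so that check covers the code and not these data. No pair of replicates agreed within sampling noise, so each library counted once. Intervals for read ratios are at the level of counting error and leave out PCR duplication.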

Additional observations from a re-analysis of the deposited data

Results flagged for a closer look

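Of 84 groups of 6 libraries, which are the males and the females of 42 genes named by the rule, 10 held a library farther from the others than Dixon's 95% critical value for 6 samples allows. For 6 values from 1 normal distribution, chance gives such a flag in about 1 in 20 groups. These groups pool both ages and share libraries, so that rate is only a rough guide.

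KO male week 0 replicate 2 gave 5 of the 10, and it is also the library with the highest mitochondrial share. It had the highest male levels of roX1 (7408 CPM, next 4918 CPM), roX2 (513.7 CPM, next 345.8 CPM), msl-3 (43.66 CPM) and Naglu (4.374 CPM), and the lowest male level of msl-1 (59.09 CPM). Without this library the roX1 and roX2 calls held.

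KO male week 3 replicate 1 had the highest male levels of Yp2 (18.22 CPM, next 7.68 CPM) and Yp3 (15.94 CPM), far below every female library. KO male week 3 replicate 2 had the highest male level of CG14452 (7.089 CPM) and the lowest of Unr (770.3 CPM), a gene encoding a partner of Sxl. KO female week 3 replicate 2 had the single female read of Su(Ste):CR42425 (0.04943 CPM), and a single read among 6 libraries always gives such a flag.

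The sex difference of TotA was larger in KO than in WG2, by 3.257 on the log2 scale, in a test of the difference itself. It was called when any one of the 24 libraries was left out, except WG2 female week 3 replicate 2.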

How the results depend on the processing

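The KO sex difference held 64 calls. RLE scaling and no filter on low counts kept the counts at both ages and overall within 1.5 times. The KO count was 190 with DESeq2, 130 with voom weights, 336 with all 48 libraries in the fit, 26 without the age block, 36 without KO female week 3 replicates 1 and 3, 119 with the number of detected genes as a covariate and 21 without the 4 libraries with over 12000 genes (the last 2 settings were chosen after seeing the data). Week 0 gave 87 with DESeq2, 60 with 48 libraries, 16 without the 2 female libraries and 10 without the 4. Week 3 gave 263, 289, 7 and 3 under the same settings. Sex by age gave 75 with DESeq2 and 84 with 48 libraries. KO minus WG2 gave 32 with DESeq2, 24 with 48 libraries and 0 without the 2 female libraries. All settings for the other genotypes were also chosen after seeing the data. DESeq2 gave 334 in WG2, 365 in W422X and 438 in Y160C. No filter gave 79 in W422X and 335 in Y160C. The cause of these shifts was not tested. Leaving out 1 library at a time gave 37 to 84 in KO, 6 to 24 at week 0, 8 to 266 at week 3, 0 to 180 for sex by age, 0 to 104 for KO minus WG2, 64 to 308 in WG2, 51 to 258 in W422X and 114 to 313 in Y160C. With a replicate block, pairing males and females of the same number, counts were 37 in KO, 10 at week 0, 21 at week 3, 61 in WG2 and 58 in Y160C, and 146 in W422X (85 higher and 61 lower in males, against 60 and 78 in the fit without it). Male and female libraries of the same number had deviations correlated at -0.73 to 0.443, and 3 of 12 lay closest to their own number. With 3 libraries per sex and age this check cannot decide whether samples of the same number were paired. The deposited column names carry other numbers for some libraries, and pairing by those was not tested. Over 87 named genes and 22 settings, 1520 values kept their side of the threshold, 381 lost a call, 8 gained one, 0 reversed and 5 DESeq2 values had no adjusted p.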
